A study of Rattus norvegicus with 2 samples.

Results

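Circular RNAs (circRNAs) whose back-spliced ends lie at most 500 bp apart on the genome were taken from a table of rat spinal cord circRNAs. The span of each was computed as end minus start plus 1 from its listed position, and 710 of the 11599 circRNAs (6.12%) were within the limit. No count entered this choice. The samples came from rats 21 days after surgery on the tibia, in groups described as 3 animals each. In the bone cancer pain (BCP) group, live Walker 256 cells, a rat mammary carcinoma line grown beforehand as ascites in Sprague-Dawley (SD) rats, had been injected into the marrow cavity. Sham animals had the same operation with boiled Walker 256 cells, so both groups carried injected cell material. The labels give neither the strain and age of the operated animals nor whether their RNA was pooled. The deposited table has 1 library per group, so every comparison is between these 2 libraries, has no replicate check and carries no p-value.

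A circRNA forms when the spliceosome joins a downstream splice donor back to an upstream acceptor. The closed molecule has no free ends, which makes it resistant to the exonuclease RNase R. Many circRNAs hold several exons and the introns between them are usually removed, so a long genomic span does not mean a long molecule. A span this short leaves room for little more than 1 exon, or for neighbouring short exons, and it is an upper limit on the length of a circle made from those bases. Brain and spinal cord are rich in circRNAs, many of them from genes of synapses, the cytoskeleton and chromatin. CircRNAs are found by reads that cross the back-splice junction, and such reads are the counts used here.

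The sham library held 113033 back-splice reads and the BCP library 78836. Counts were scaled to these totals as CPM, which brings both libraries to the same sum of reads. All intervals are 95% and cover counting error only, since PCR copies of a molecule could not be told from separate molecules. The smallest count above 0 was 2 reads in both libraries, so single reads may have been dropped from the list: a 0 does not mean absence, and no fold is given against it. The labels name spinal cord cells as the tissue, while their source field names the injected line. Circles of neuronal and oligodendrocyte genes were listed, such as those of Map2 (102 and 77 reads in sham and BCP, all spans) and Mbp (6 and 36), while the astrocyte markers Gfap and Aqp4, the microglial markers Cx3cr1 and P2ry12 and all 12 skeletal muscle genes of a fixed list had none.

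Among short-span circRNAs, the smallest span was 138 bp, which was also the smallest in the whole table. The median was 275 bp, with quartiles at 198 and 378 bp. The sham library listed 497 of the 710 and the BCP library 476. Both libraries listed 37.0% of the 710 (33.5 to 40.7), against 41.2% of all circRNAs. The 263 listed in both libraries had a median span of 302 bp, against 254 bp for the 234 listed in sham alone and 253 bp for the 213 listed in BCP alone. In the whole table, 4224 of the 11599 circRNAs were listed in sham alone and 2596 in BCP alone. Circles of 138 to 200 bp were the thinnest: 180 circRNAs with a mean of 6.04 reads over both libraries, of which 22.2% (16.4 to 29.0) were listed in both. In the class of 301 to 400 bp the mean was 15.6 reads and 44.5% (37.0 to 52.2) were listed in both, close to the 45.0% (41.1 to 48.9) of circRNAs of 501 to 1000 bp. Numbers of circRNAs were highest between 151 and 250 bp, while reads peaked at 226 to 250 bp, with 7281 CPM in sham and 8829 CPM in BCP.

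**Figure D1:**
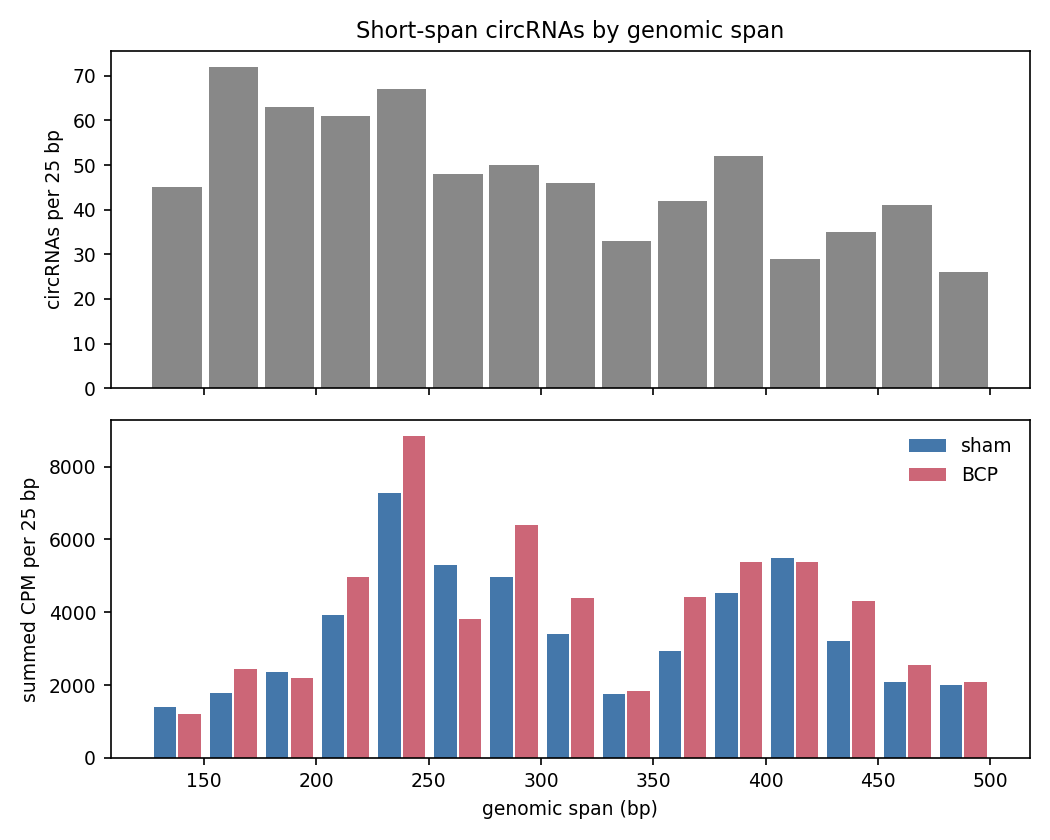
Number of short-span circRNAs (top, grey bars) and their summed reads in CPM (bottom, sham blue, BCP red) in 25 bp steps of genomic span (horizontal axis, bp). The smallest circles are numerous but hold few reads, and reads are highest at 226 to 250 bp in both libraries.

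Levels were uneven. In sham the median count of a listed short-span circRNA was 5 reads and 23.3% had exactly 2 reads. In BCP the median was 4 reads and 25.8% had 2. The 10 highest in each library held 24.1% (23.0 to 25.2) of short-span reads in sham and 20.5% (19.4 to 21.7) in BCP. Circles listed in sham alone held 21.0% of the short-span reads of that library, and those listed in BCP alone held 16.4% of BCP's. The same shares over the whole table are not given here.

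Abundant short-span circles included single ones from genes of transcription, Wnt signalling and axonal transport, beside others that shared no theme. A 239 bp circle of the class IIa histone deacetylase gene Hdac4 (chromosome 9, 99266783 to 99267021, build rn6 throughout) had 156 sham and 134 BCP reads, 1380 and 1700 CPM, a ratio of 1.23 (0.970 to 1.56). Med13l, a gene for a subunit of the Mediator kinase module, gave a 238 bp circle (chromosome 12, 43576497 to 43576734) with 151 and 127 reads, a ratio of 1.21 (0.945 to 1.54). The Hdac4 and Med13l intervals included 1, so neither level differed between the libraries beyond counting error.

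Lrp6, the Wnt co-receptor gene, hosted a 394 bp circle (chromosome 4, 168296980 to 168297373) with 101 sham and 76 BCP reads, a ratio of 1.08 (0.790 to 1.47). The sialyltransferase gene St6galnac3 hosted one of 410 bp (chromosome 2, 259591896 to 259592305) with 94 and 75 reads, a ratio of 1.14 (0.833 to 1.57). Kif5a, which encodes a neuronal kinesin heavy chain of axonal transport, hosted one of 276 bp (chromosome 7, 70526572 to 70526847) with 90 and 70 reads, a ratio of 1.12 (0.804 to 1.54). Etl4 hosted one of 284 bp (chromosome 17, 87396008 to 87396291) with 97 and 84 reads, a ratio of 1.24 (0.916 to 1.68). All 4 of these intervals included 1. They took most of the circRNA reads of their genes: in sham, 95.7% for Kif5a, 86.2% for St6galnac3, 82.2% for Etl4 and 62.0% for Lrp6. The Hdac4 circle was the single circRNA listed for its gene.

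Another 3 abundant circles could not be tied to a known gene. A 408 bp circle without a host (chromosome 7, 52745151 to 52745558) had 218 reads in sham and 87 in BCP, 1929 and 1104 CPM, and was 1.75-fold lower in BCP (1.36 to 2.27). Another without a host (chromosome 10, 110101466 to 110101880; 415 bp) had 75 and 90 reads, a ratio of 1.72 (1.25 to 2.37). The circle given to LOC100362999 (chromosome 6, 59301040 to 59301308; 269 bp) had 287 sham reads (2539 CPM), the highest count of any short-span circRNA in either library, and a 0 in BCP. It was the single circRNA listed for that name, and the name had no match in the RefSeq gene table.

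**Figure D2:**
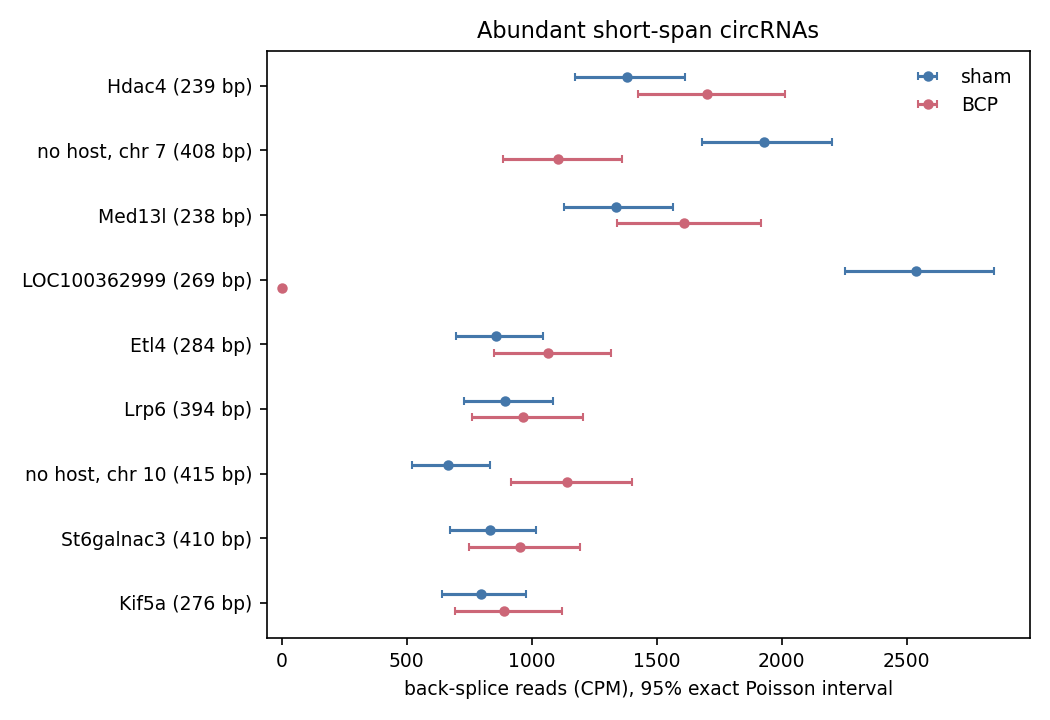
CPM (horizontal axis) of 9 of the 10 short-span circRNAs with the highest mean CPM, with 95% exact Poisson intervals, in sham (blue) and BCP (red); a listed 0 has no interval. The levels of LOC100362999 stand apart between the libraries, at 2539 CPM and 0, and those of Lrp6, St6galnac3 and Kif5a overlap.

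The first comparison asked whether short-span circles as a class took a different share of each library. They took 5.25% of sham reads and 6.02% of BCP reads, so the share was 1.15-fold higher in BCP (conditional exact binomial interval 1.10 to 1.19). The class of 301 to 400 bp had the highest ratio, 1.27 (1.18 to 1.37), from 1428 and 1264 reads. Ratios were 1.12 (1.05 to 1.19) for 201 to 300 bp and 1.12 (1.03 to 1.21) for 401 to 500 bp. For 138 to 200 bp, with 626 and 462 reads, the ratio was 1.06 and its interval (0.936 to 1.20) included 1. Beyond the limit each longer class had a lower ratio: 1.07 (1.03 to 1.11) for 501 to 1000 bp, 1.04 (1.02 to 1.05) up to 10000 bp, 0.953 (0.940 to 0.965) up to 100000 bp and 0.855 (0.795 to 0.920) above.

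Scaling moves all of these ratios together. Median-of-ratios scaling shifted every log2 ratio by -0.10 and TMM by -0.12, which put the short-span share at 1.07 (1.03 to 1.11) and 1.06 (1.02 to 1.10). With median-of-ratios scaling the classes of 201 to 300 bp (1.04, 0.978 to 1.10) and 401 to 500 bp (1.04, 0.961 to 1.12) no longer differed beyond counting error, while that of 301 to 400 bp still did (1.18, 1.09 to 1.27). The classes of 138 to 200 bp (0.984), 501 to 1000 bp (0.995) and 1001 to 10000 bp (0.965) turned below 1. TMM gave the same directions, so the span at which the ratio crossed 1 depends on the scaling. A comparison within the libraries does not depend on scaling: the odds of a BCP read among short-span circles were 1.16 times those among circRNAs over 500 bp (Fisher's exact conditional interval 1.11 to 1.20), and 1.07 times (1.02 to 1.13) those among circRNAs of 501 to 1000 bp. Of the short-span classes, only that of 301 to 400 bp differed from 501 to 1000 bp beyond counting error, at 1.19 times (1.09 to 1.29), and the others lay between 0.989 and 1.05 with intervals that included 1. Without the LOC100362999 circle the short-span share was 1.21-fold higher in BCP (1.16 to 1.25). The sham library was the deeper one, and the part of depth in the ratios was not tested. In bulk RNA, fewer cells of a type and less RNA per cell cannot be told apart.

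**Figure D3:**
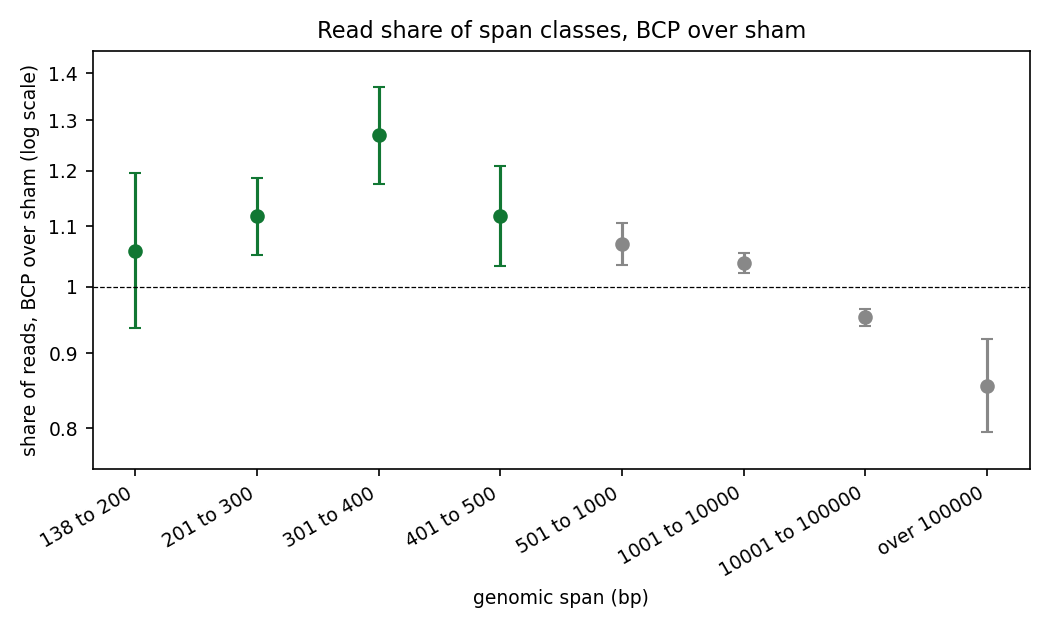
Share of reads in BCP over that in sham (vertical axis, log scale) for classes of genomic span (horizontal axis, bp), with 95% conditional exact binomial intervals; short-span classes are green and longer ones grey. With scaling to column totals, points lie above 1 up to 10000 bp and below 1 beyond, and the highest, 1.27, is at 301 to 400 bp; with median-of-ratios or TMM scaling the classes of 138 to 200, 501 to 1000 and 1001 to 10000 bp fall below 1.

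The second comparison asked which short-span circles differed between the libraries. A circRNA was tested if its reads in the libraries summed to at least 10, and it met the size rule with a CPM ratio of at least 2-fold and an interval that excluded 1. Of the 710, 209 were tested, and 24 were higher and 17 lower in BCP, while 168 met neither side. The 24 are 11.5% of those tested (7.50 to 16.6), against 7.82% of all 3502 tested circRNAs, a share inside that interval. The 17 are 8.13% (4.81 to 12.7), against 7.42%. For the 227 tested circRNAs of 501 to 1000 bp the shares were 9.69% higher and 4.41% lower. The numbers of calls are thus near the background in both directions. The median log2 ratio of the 209 was 0.27 (pseudocount of 0.5 reads), against 0.02 over all tested circRNAs and -0.03 for those of 501 to 1000 bp. Of the 209, 126 (60.3%, 53.3 to 67.0) had a ratio above 1, against 50.7% of all tested.

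Hnrnph1, which encodes an RNA-binding protein of splicing, hosted the circle with most reads among those higher in BCP with reads in both libraries (chromosome 10, 35876034 to 35876397; 364 bp). It had 57 sham reads (504 CPM) and 85 BCP reads (1078 CPM), a ratio of 2.14 (1.51 to 3.05). Its log2 ratio fell just under 1 with median-of-ratios (0.99) and TMM scaling (0.98), which ended the call. Gse1 hosted a 219 bp circle (chromosome 19, 54125781 to 54125999) with 33 and 60 reads, 292 and 761 CPM, a ratio of 2.61 (1.68 to 4.12). Plxnd1, a semaphorin receptor gene, hosted one of 382 bp (chromosome 4, 147869323 to 147869704) with 19 and 32 reads, a ratio of 2.41 (1.33 to 4.51). For Gse1 and Plxnd1 no other circRNA was listed, so the short circle was the whole circRNA output seen for each gene.

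Bcl11b, a zinc finger transcription factor gene, hosted a 366 bp circle (chromosome 6, 131912740 to 131913105) with 15 and 28 reads, a ratio of 2.68 (1.38 to 5.39). A 276 bp circle of Faxdc2 (chromosome 10, 43512009 to 43512284) had 4 and 38 reads, a ratio of 13.6 (4.90 to 52.5). One of 156 bp without a host (chromosome X, 119152559 to 119152714) had 11 and 32 reads, a ratio of 4.17 (2.05 to 9.17). These counts are low, and the lower bounds of the intervals, from 1.38 to 4.90, show how little the size of the difference is fixed. The other 10 higher circles with reads in both libraries had between 11 and 42 reads over both and ratios from 2.24 to 11.8, among them those of Rbfox2, Map4k1, Gatad2a, Aebp1, Cntrl and Letm1, named after their values were seen.

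Of the 24 higher in BCP, 8 were listed at 0 in sham (84 of 274 in the whole table). The one with most reads was a 466 bp circle of Rere, a gene for a transcriptional corepressor of the atrophin family (chromosome 5, 167455211 to 167455676), with 28 reads (355 CPM) in BCP. The 18 longer circRNAs of Rere had 479 and 312 reads together, a ratio of 0.934 (0.807 to 1.08), so the gene's other circles did not differ beyond counting error. Flywch1 (chromosome 10, 13096406 to 13096669; 264 bp) had 26 reads in BCP. The GTPase activator gene Arhgap10 (chromosome 19, 34207716 to 34207946; 231 bp) had 20, and its 14 longer circRNAs had 67 and 105 reads, a ratio of 2.25 (1.64 to 3.10), in the same direction. A hostless circle of chromosome 15 (27739023 to 27739233; 211 bp) had 17 reads, and one of the neurofilament gene Nefm (chromosome 15, 44856233 to 44856454; 222 bp) had 12.

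On the side of sham, 12 of the 17 lower circles were listed at 0 in BCP (174 of 260 in the whole table). After LOC100362999 came a hostless 150 bp circle of chromosome 1 (221152456 to 221152605) with 65 sham reads (575 CPM). Next were a hostless one of chromosome 3 (12700508 to 12700694; 187 bp) with 25 reads, one of the parathymosin gene Ptms (chromosome 4, 157436084 to 157436365; 282 bp) with 19 and one of the tyrosine kinase gene Jak2 (chromosome 1, 247411115 to 247411365; 251 bp) with 18. The other 7 had 10 to 16 sham reads. Of these 12 circles, 9 had spans of at most 300 bp, as had 103 of the 209 tested.

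Only 5 lower circles had reads in both libraries, 2.65% of the 189 short-span ones tested with reads in both, against 2.65% of all 3244 such circRNAs. Adgrl3, a gene for an adhesion receptor of the latrophilin family, hosted one of 234 bp (chromosome 14, 28856160 to 28856393) with 22 and 4 reads, 3.84-fold lower in BCP (1.30 to 15.3). The 11 longer circRNAs of Adgrl3 had 71 and 47 reads, a ratio of 0.949 (0.642 to 1.39). Ttc33 hosted one of 222 bp (chromosome 2, 54902818 to 54903039) with 22 and 5 reads, 3.07-fold lower (1.13 to 10.4). The other 3 had no host: on chromosome 8 (123022505 to 123022736), 27 and 5 reads, on chromosome 6 (74325751 to 74326157), 27 and 4 reads, and on chromosome X (82845848 to 82846306), 21 and 4 reads. Higher circles with reads in both libraries numbered 16, 8.47% of the 189, against 5.86% of all 3244.

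**Figure D4:**
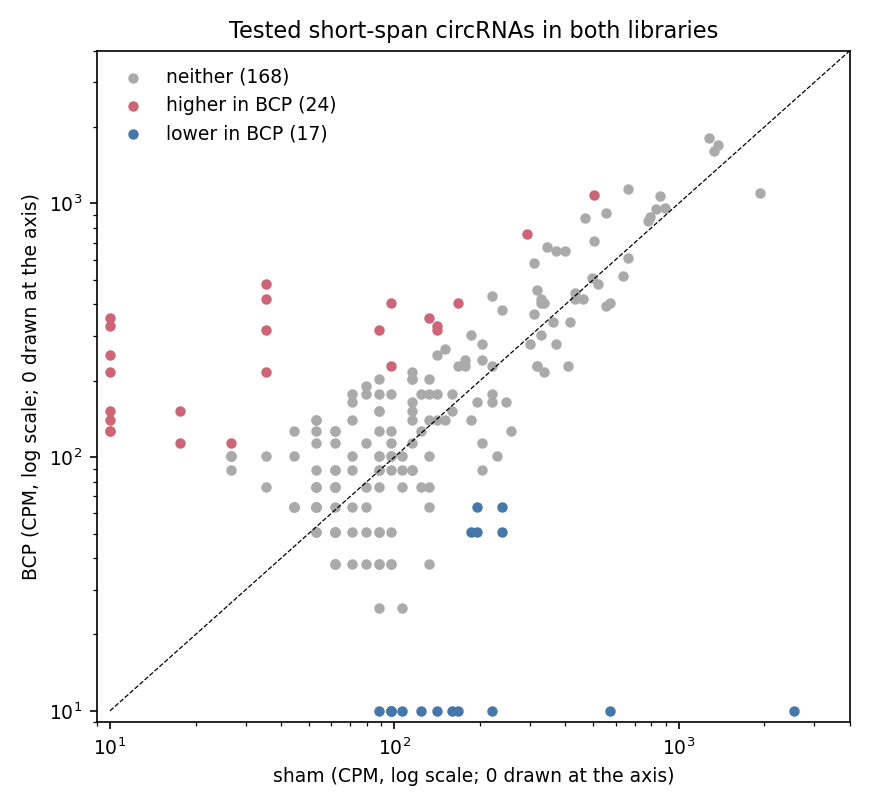
CPM in sham (horizontal) and BCP (vertical) of the 209 tested short-span circRNAs on log axes, with a listed 0 drawn at the axis and the dashed line marking equal CPM. The 24 circles higher in BCP (red) and the 17 lower (blue) include 20 listed at 0 in 1 library.

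Of the 47 short-span circles with sums of 50 or more reads, 3 were higher in BCP by the rule and 2 lower. The 2 lower ones were LOC100362999 and the 150 bp circle of chromosome 1, both listed at 0 in BCP. For the 45 with reads in both libraries, which leaves those 2 out, ratios ran from 0.561 to 2.61. The median log2 ratio of the 45 was 0.20, and 28 of them lay above 1. The SD of their log2 ratios was 0.55, where counting error alone gives 0.31. Among 589 longer circRNAs chosen in the same way the SD was 0.62 and the median -0.01.

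Host genes were diverse. A single host name was left for 605 of the 710 circles, none for 102 and several for 3, and 541 of the 553 host names matched the RefSeq gene table. In 506 of these genes there was 1 short-span circle, in 44 there were 2, in Gigyf1 there were 3, and in Acadvl and Nefm there were 4 each. Longer circRNAs were listed for 324 of the 553 hosts (58.6%). Of the 186 tested circles with a single host, 125 held over 50% of the circRNA reads of their gene, and for 50 no other circRNA of the gene was listed.

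Circles of the same genes were compared by span. In the 324 hosts that had both kinds, short-span circles had 3312 sham and 2727 BCP reads, a ratio of 1.18 (1.12 to 1.24). Longer circRNAs of these genes had 12141 and 8214 reads, a ratio of 0.970 (0.943 to 0.998). The odds of a BCP read among the short circles were 1.22 times those among the longer ones (1.15 to 1.29), a value free of scaling. Gene by gene the pattern was weak: of 75 hosts with at least 10 reads and reads in both libraries on each side, 42 had a higher ratio for short than for longer circles, with a median difference of 0.11 on the log2 scale.

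Acadvl, which encodes a mitochondrial enzyme of fatty acid oxidation, listed 4 short circles within 1040 bp and no longer one. They had 11 and 8, 13 and 11, 5 and 0, and 2 and 2 reads in sham and BCP, 31 and 21 in all, a ratio of 0.971 (0.530 to 1.75). The 4 circles of Nefm, for the medium neurofilament chain of axons, did not recur: those of 169 and 339 bp had 8 and 9 reads in sham alone, and those of 222 and 183 bp had 12 and 2 reads in BCP alone. Summed, Nefm had 17 and 14 reads (1.18, 0.539 to 2.55), so the gene did not differ beyond counting error although each of its circles was listed in a single library. Of the 3 circles of Gigyf1, a gene of translational repression, 1 of 144 bp had 16 reads in sham and the others had 2 and 3 reads.

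Axon cytoskeleton and transport genes of a fixed list hosted 16 short circles. Of the 24 genes of the list, 17 hosted a circRNA and 11 a short-span one. The 16 made up 23.9% of their circRNAs, against 6.12% of the table. Beside those of Nefm and Kif5a they included circles of Ina, Nefh, Sptan1, Ank2, Ank3, Kif5c, Kif1b, Map4 and Map2. The Map2 circle (chromosome 9, 73399273 to 73399557) had 9 reads in each library. Of the 4 tested, 1 was higher in BCP, 0 lower and 3 met neither side, with a median log2 ratio of 0.52. Over all tested circRNAs 7.82% were higher and 7.42% lower, with a median of 0.02. Summed, the 16 short circles had 140 and 104 reads, a ratio of 1.07 (0.818 to 1.38).

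In a fixed list of 46 MAPK and growth factor genes, the pathway of the series title, 4 genes hosted a short circle each. These were 2.52% of the circRNAs of the list, and 2 of them were tested and met neither side. The larger was that of Rps6ka5, which encodes a nuclear kinase activated by ERK and p38 (chromosome 6, 124651885 to 124652103; 219 bp), with 47 and 27 reads, a ratio of 0.824 (0.493 to 1.35). Map3k4 had 6 reads in each library. The list summed to 53 and 40 reads, a ratio of 1.08 (0.699 to 1.66), with a median log2 ratio of 0.13. Its theme comes from the study, so it is not independent evidence. Genes outside the list were not counted. Examples are Map4k1, whose short circle (4 and 33 reads) was among those higher in BCP, and Gab1 (45 and 51 reads).

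Excitatory synapse genes of a fixed list of 33 hosted 5 short circles (5.62% of their circRNAs, near the 6.12% of the table). Of these, 3 were tested and met neither side. Among them were those of the AMPA receptor gene Gria4 (13 and 9 reads) and of Dlg4, the gene of PSD-95 (6 and 5 reads). The median log2 ratio of the 3 was 0.28. Presynaptic genes of a list of 30 hosted 3, of which 2 were tested (log2 ratios 0.52 and 2.48). Of these 2, 1 was higher in BCP, as were 7.82% of all tested circRNAs. This was a 211 bp circle of the active zone gene Rims2 (chromosome 7, 78188914 to 78189124) with 4 and 17 reads, a ratio of 6.09 (1.99 to 24.9). A 311 bp circle of Rims2 had 13 reads in each library, a ratio of 1.43 (0.612 to 3.36), and the 46 longer Rims2 circRNAs had 862 and 518 reads, 0.862 (0.771 to 0.962). The 22 inhibitory synapse genes of a list hosted 0. The 30 ion channel genes of another hosted 2, those of Cacna1b and Kcnh1, with 3 and 2 reads. Genes outside these lists were not counted, such as the ion channel gene Kcnh3 (27 and 30 reads).

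In a fixed list of 33 genes of RNA-binding proteins of splicing and circularization, 3 hosted 4 short circles (8.70% of the circRNAs of the list). The 1 tested was that of the splicing regulator gene Rbfox2 (chromosome 7, 118173410 to 118173672; 263 bp), with 16 and 26 reads, higher in BCP at 2.33-fold (1.20 to 4.65). Among all tested circRNAs 7.82% were higher. Hnrnph1, described above, is outside the list and hosted 2 short circles with 99 and 136 reads in all. A fixed list of 51 known circRNA hosts had 5 short circles (1.75% of their circRNAs, against 6.12% of the table) with 36 and 84 reads. Of the 4 tested, 2 were higher, those of Rere and Rims2, and 0 lower, and the median log2 ratio was 1.65. Over all tested circRNAs 7.82% were higher and the median was 0.02. The 281 longer circRNAs of the list had 18243 and 12240 reads, a ratio of 0.962 (0.940 to 0.984). The list was made with earlier results of these data known, so its count is not independent. Elf2, a gene for an ETS transcription factor, had a 166 bp circle with 17 and 21 reads (1.77, 0.890 to 3.58).

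The cell type markers of fixed lists had few reads among short circles. Short circles still made up 26.3% of the circRNAs of the 20 oligodendrocyte genes and 18.8% of those of the 16 astrocyte genes. Oligodendrocyte genes hosted 5, with 6 and 12 reads in all, among them 1 of the myelin gene Mbp with 4 and 5 reads. Astrocyte genes hosted 3, with 10 and 0 reads, such as that of the glutamine synthetase gene Glul (5 and 0). The leukocyte gene Ptprc had 2 and 0 reads, and the red cell anion exchanger gene Slc4a1 had 6 and 0. The protein and RNA synthesis list had 2 and 0 reads, both of Pabpc1. None of these circles had enough reads to be tested. The vessel and skeletal muscle genes of the lists hosted 0. The part of these cell types in the class difference was not tested.

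The ends of short circles were less often those of other circRNAs. Of the 710, 33.7% (30.2 to 37.3) shared a start or an end with another listed circRNA, against 61.6% (60.7 to 62.5) of circRNAs over 500 bp. Circles of 501 to 1000 bp were close, at 38.5% (34.7 to 42.4), so the difference was not particular to the 500 bp limit. Both ends were shared by 4.65% (3.22 to 6.47) of short circles and 17.4% (16.7 to 18.1) of those over 500 bp. Among tested circRNAs the shares with at least 1 shared end were 47.4% (40.4 to 54.4) and 71.6% (70.1 to 73.2). CircRNAs of the same gene are not independent, and these intervals take each as 1 unit. Examples with both ends shared were the Rims2 circles and those of Rps6ka5 and Elf2.

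Position inside a longer circRNA was a related measure. Of the 710, 254 (35.8%) lay within the ends of a listed circRNA over 500 bp. These had 2683 and 2019 reads, a ratio of 1.08 (1.02 to 1.14), and 47.2% of them were listed in both libraries. The 456 that lay in no longer circRNA had 3248 and 2729 reads, a ratio of 1.20 (1.14 to 1.27), and 31.4% were listed in both. With median-of-ratios scaling the ratios were 1.003 (0.947 to 1.06) for the first and 1.12 (1.06 to 1.18) for the second, and with TMM the first was 0.995 (0.939 to 1.05), so the difference of the nested circles from 1 depends on the scaling.

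Some short circles shared one end and differed by a few bases at the other. Of 20 pairs of short circles with a common end, 9 differed by at most 50 bp, and in all 9 the difference was a multiple of 3: 3, 6, 15, 18, 21, 36 or 39 bp. Of the 11 pairs that differed by more, 6 differences were multiples of 3, and among circRNAs over 500 bp the share was 46 of 114 pairs within 50 bp (40.4%, 31.3 to 49.9). The limit of 50 bp was set after the values were seen.

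The pair of Hnrnph1 shared the end at 35876397, and the starts lay 21 bp apart. The 364 bp form had 57 and 85 reads and the 385 bp form 42 and 51, so both ratios, 2.14 and 1.74 (1.13 to 2.68), lay above 1, and together they had 99 and 136 reads (1.97, 1.51 to 2.58). Szrd1 had forms of 252 and 255 bp with a common start (chromosome 5, 159643630). The shorter had 22 and 13 reads and the longer 49 and 35, with ratios of 0.847 (0.392 to 1.76) and 1.02 (0.644 to 1.61). The forms of Szrd1 thus kept their order in both libraries.

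In Ptms the forms went apart. The 282 bp form had 19 sham reads and a 0 in BCP, and the 288 bp form, 6 bp longer from the same start, had 35 and 46 reads, a ratio of 1.88 (1.19 to 3.01). Summed, they had 54 and 46 reads, a ratio of 1.22 (0.806 to 1.84), so Ptms as a pair did not differ beyond counting error. Bcl11b had a 363 bp form with 10 and 8 reads (1.15, 0.393 to 3.23) beside the 366 bp form that was higher in BCP. Together they had 25 and 36 reads, a ratio of 2.06 (1.21 to 3.59). Prmt1, which encodes an arginine methyltransferase, had forms of 351 bp (7 and 9 reads) and 387 bp (10 and 12).

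Spans themselves were multiples of 3 more often than in longer circRNAs, for which no such excess was seen. Of the 710 spans, 272 (38.3%, 34.7 to 42.0) were divisible by 3, against 33.2% (32.3 to 34.1) over 500 bp. The excess lay in circles of at most 300 bp, with 42.6% (37.7 to 47.6) of 406, and 32.6% (27.3 to 38.1) of the 304 longer ones were divisible. It also lay in circles listed in a single library, with 41.6% (37.0 to 46.3) of 447, while 32.7% (27.1 to 38.7) of the 263 listed in both were divisible. These groups overlap: circles of at most 300 bp in 1 library stood at 46.0% (40.0 to 52.1). Those of at most 300 bp in both stood at 35.4% (27.2 to 44.2). Those of 301 to 500 bp in 1 library stood at 34.5% (27.4 to 42.1), and both of these intervals included 1 in 3. Over 500 bp the shares were 33.1% in 1 library and 33.3% in both. This property was looked at after other values of the table were seen.

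**Figure D5:**
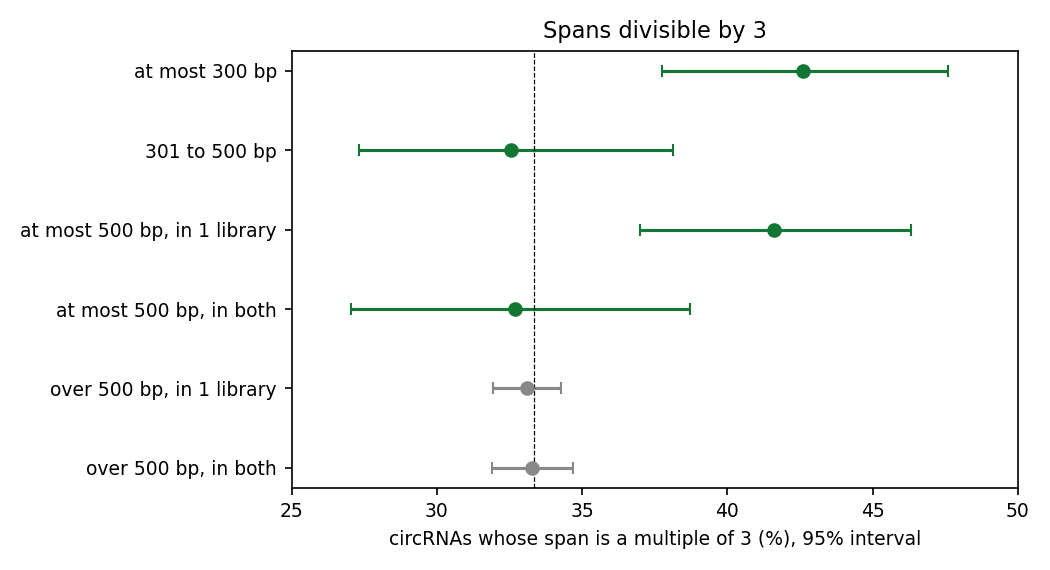
Percent of circRNAs whose genomic span is a multiple of 3 (horizontal axis), with 95% exact binomial intervals, for short-span circles by span and by listing (green) and for longer circRNAs (grey); the dashed line marks 1 in 3. Circles of at most 300 bp and those listed in 1 library lie above the line, at 42.6% and 41.6%.

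The densest place was on chromosome 1. Within 6081 bp (221152381 to 221158461) lay 14 of the 710, none with a host name left, and the next densest places held 5 (chromosome 6, 133677634 to 133679461) and 4. Of the 14, 3 were listed in both libraries, 6 in sham alone and 5 in BCP alone. Those in both libraries shared the start at 221156954, had spans of 283, 463 and 466 bp and had 10 and 14, 6 and 10, and 2 and 2 reads. Those in sham alone included the 150 bp circle with 65 reads named above and one of 218 bp (221157175 to 221157392) with 14 reads. The 5 in BCP alone had 3 reads each. The 14 summed to 106 and 41 reads, a ratio of 0.555 (0.377 to 0.802), and the 65 reads of 1 circle made up most of the sham sum.

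The shortest tested circles were those of the deacetylase gene Sirt7 (138 bp; 6 and 4 reads), the neuronal membrane protein gene Basp1 (143 bp; 3 and 8 reads) and Gigyf1 (144 bp). Just inside the 500 bp limit lay tested circles of the chondroitin synthase gene Chsy1 (496 bp; 65 and 32 reads, 575 and 406 CPM) and of Nav3 (489 bp; 56 and 40 reads, 495 and 507 CPM). Just outside lay those of Kif27 (503 bp; 6 and 5 reads) and of Tubgcp4 (503 bp; 109 and 66 reads, 964 and 837 CPM), a gene of the gamma-tubulin complex.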

How the data were processed

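Before random priming, ribosomal RNA was removed and linear RNA was digested for 15 min (RNase R, 16 units), per the labels' protocols. Per the submitters' processing notes, CASAVA 1.8 and BWA were used with build rn6. For the circRNA caller and its settings, the sources used here give nothing. The authors deposited back-splice read counts per circRNA. Their deposited columns headed TPM are CPM: all 9003 sham and 7375 BCP counts above 0 match, within 0.001 CPM, the count scaled to its column total, and 0 is written as 0.001.

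Small RNA family names and 65 names covering over 3 Mb of a chromosome were dropped from the gene field; names were checked against RefSeq (GRCr8), used for names alone. No count model could be run with 1 library per group. The size rule was applied to the whole table. Named circles were the 10 highest by mean CPM, up to 6 (reads in both) and 5 (0 in 1 library) per direction by reads, those of the 5 hosts with most circles, up to 2 for each of 16 gene lists, the 3 shortest, and 2 on each side of the limit; some of these are not reported here. Members and lists were chosen with earlier results of these data known. Alternatives used DESeq2 1.42.0 and edgeR 4.0.16 scaling, scipy 1.17.1 for intervals.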

Additional observations from a re-analysis of the deposited data

How the results depend on the processing

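No paired analysis was possible because each group has 1 library, and for the same reason no replicate could be left out. The short-span share, 1.15-fold higher in BCP, stayed above 1 in all 11 alternatives run. It was 1.07 with median-of-ratios scaling, 1.06 with TMM, 1.10 with a limit of 1000 bp, 1.21 without the LOC100362999 circle and 1.07 against reads of 501 to 1000 bp, the 1000 bp limit being planned and the last 2 added after the values were seen. The size rule gave 24 higher and 17 lower circles, and 53 and 31 with a minimum of 5 reads, where more circles are tested. At least 20 reads left 8 lower, and reads in both libraries left 5 lower. With median-of-ratios or TMM scaling 21 were higher and 22 lower, and with 1 read in place of each 0 (added) 24 and 16. The median log2 ratio of 0.27 (exact order-statistic interval 0.06 to 0.36) ranged from 0.15 with TMM to 0.28. Thinning sham to the BCP total put its share of listed circRNAs that are short-span at 5.43%, from 5.52%. Of 69 named circRNAs, 68 kept their side of the rule under both scalings and that of Hnrnph1 lost its call. Most circles have under 10 reads, so differences of a few fold in them were not detectable at this depth.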

Other observations

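Short-span circles were unevenly spread over chromosomes. They made up 9.23% (6.31 to 12.9) of the circRNAs of chromosome 12 and 8.67% (6.71 to 11.0) of those of chromosome 10, but 3.11% of those of chromosome 4 (2.002 to 4.59) and of chromosome 17 (1.67 to 5.26). The BCP over sham ratio of their summed CPM was highest on chromosome 19, at 1.84 (1.49 to 2.27), from 160 and 205 reads, where the circle of Gse1 gave 33 and 60. It was lowest on chromosome 6, at 0.619 (0.537 to 0.711), where LOC100362999 alone gave 287 of 672 sham reads. These chromosomes were chosen after their values were seen.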
